A study of Mus musculus with 22 samples.

Results

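Ighv3-8 is a heavy chain variable (V) segment of the mouse, and it gave more sequences than any other V segment in these kidney B cell repertoires. Its members were taken as all deposited sequences whose first V assignment was IGHV3-8, which held for 3661 of the 17178 sequences in the 22 libraries (21.3%). The next segments were Ighv3-1 with 3434 sequences and Ighv12-3 with 3216, and Ighv3-6 followed with 1271. The segment was chosen by this number of sequences, so its share of sequences is given below as a description with no test. All 3661 assignments named IGHV3-8 alone.

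The libraries came from kidneys of female C57BL/6 wild-type mice aged 8 to 10 weeks, taken on day 56 after the first of 2 inoculations of the bladder. The 5 mice of the UPEC group had received uropathogenic Escherichia coli of the strain UTI89, and the 6 mice of the PBS group had received phosphate-buffered saline. An antibody to CD45 was injected into the blood shortly before death, and B cells were sorted into an intravascular fraction reached by the antibody (CD45IV+) and an extravascular fraction not reached by it (CD45IV-). Each mouse therefore gave 1 library of each fraction, and the kidneys were not perfused. The libraries held 244 to 2134 sequences and 936 to 18956 reads. The PBS extravascular libraries were the deepest (6271 to 18956 reads, against 1881 to 4385 for PBS intravascular, 936 to 8039 for UPEC extravascular and 1504 to 6269 for UPEC intravascular). Only immunoglobulin heavy chain sequences were measured, so the sorted cell type could not be checked against other marker genes.

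A heavy chain variable region is assembled in each B cell precursor by joining 1 V, 1 diversity (D) and 1 joining (J) segment, with nucleotides trimmed from and added to the ends. The junction encodes the third complementarity-determining region (CDR3), the most variable loop of the antibody, and daughter cells of 1 B cell share it. In activated B cells the assembled V region can gain point mutations (somatic hypermutation), and the constant region can be switched from IgM and IgD to IgG, IgE or IgA. Ighv3-8 lies on chromosome 12, on the minus strand, at positions 114322327 to 114322801 of the GRCm38.p6 reference (gene ENSMUSG00000076674.2, 2 exons). Its germline V region runs over 291 nucleotides at chr12:114322376-114322666 and is exonic. It is shown because the mismatches described below are counted against it; the capitals mark the 9 nucleotides from the conserved cysteine codon onward, where the CDR3 junction starts.
Ighv3-8: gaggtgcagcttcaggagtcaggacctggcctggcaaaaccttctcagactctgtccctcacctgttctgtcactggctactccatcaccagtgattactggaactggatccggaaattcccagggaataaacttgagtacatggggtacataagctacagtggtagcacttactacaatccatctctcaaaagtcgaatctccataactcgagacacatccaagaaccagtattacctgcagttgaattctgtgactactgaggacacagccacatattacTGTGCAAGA

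The units are as follows. A sequence is 1 row of the deposited tables, a distinct nucleotide sequence read at least 2 times. A clonotype is the set of sequences of 1 library with the same V segment, J segment and CDR3 nucleotides. Around each abundant CDR3 the libraries held sequences whose CDR3 differed from it by 1 nucleotide, so a further unit, the lineage, folds clonotypes of the same V, J and CDR3 length that differ by 1 nucleotide into the most abundant one. The lineage was added after the data had been seen. Over all libraries Ighv3-8 had 969 clonotypes and 642 lineages.

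By sequences, the mean share of Ighv3-8 was close in both fractions of PBS mice and lower outside the vessels in UPEC mice. In the PBS extravascular libraries it made up 7.64%, 23.7%, 16.5%, 15.5%, 41.3% and 35.4% of the sequences of mice 1 to 6, a mean of 23.4% ± 12.8 (SD, n = 6). In the PBS intravascular libraries of the same mice it made up 17.8%, 26.2%, 21.7%, 25.8%, 26.2% and 15.9%, a mean of 22.2% ± 4.58 (SD, n = 6). The extravascular values lay both above and below the intravascular ones. In the UPEC group the extravascular shares were 3.69%, 22.6%, 24.0%, 18.6% and 15.4% for mice 1 to 5, and the intravascular shares were 24.5%, 26.2%, 29.1%, 29.4% and 21.0%. There every extravascular value was below the intravascular value of the same mouse, and UPEC mouse 1 stood apart with 9 Ighv3-8 sequences of 244 (95% Wilson interval 1.95% to 6.86%, counting error only). The segment ranked first in all 5 UPEC intravascular libraries, in 4 of 6 PBS intravascular and 3 of 6 PBS extravascular libraries, and in none of the 5 UPEC extravascular libraries, where it was second in 4.

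By clonotypes, the share was 13.7% ± 6.18 in PBS extravascular and 15.5% ± 5.20 in PBS intravascular libraries (SD, n = 6 each), lower outside the vessels in 4 of 6 mice. limma on log2 shares with the mouse as a block gave a log2 difference of -0.24 (SE 0.60) and an adjusted p of 0.834. Of the 17 V segments tested, 5 passed an adjusted p of 0.05, which is 29.4%, and Ighv3-8 was not among them. With only clonotypes of at least 3 reads in all, the difference was -1.01 (adjusted p = 0.172, limma). Of the 8 segments that could then be tested, 0 were called. The count of 5 fell to 0 without PBS mouse 2, to 2 without mouse 3 and to 3 without mouse 4, and Ighv3-8 was called in none of these fits. In the UPEC mice the clonotype share was 9.71% ± 3.86 outside and 17.8% ± 4.77 inside the vessels (n = 5), lower outside in 5 of 5 mice. limma gave -0.94 (SE 0.72, adjusted p = 0.353; 0 of 16 segments called), and the exact signed-rank test for this segment gave p = 0.0625, the smallest that 5 pairs allow. Without UPEC mouse 1 the limma difference was -0.53 (adjusted p = 0.498).

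By lineages, the share was lower in the extravascular fraction. The PBS extravascular values were 7.37%, 3.85%, 5.41%, 1.00%, 3.05% and 8.80% for mice 1 to 6, and the intravascular values 10.6%, 23.5%, 18.1%, 14.2%, 16.8% and 9.44%. No extravascular value reached the lowest intravascular one, and the share was lower outside in 6 of 6 mice. The means were 4.91% ± 2.87 and 15.4% ± 5.19, and limma gave a log2 difference of -1.80 (SE 0.49, adjusted p = 0.00474). Here 4 of 13 segments were called (30.8%), 3 of them lower outside the vessels (23.1%). The call stood when each PBS mouse was left out in turn (adjusted p 0.0012 to 0.0334). In the UPEC mice the lineage share was 6.11% ± 2.09 against 15.6% ± 7.31, lower in 4 of 5, and was not called (log2 difference -1.25, SE 0.73, adjusted p = 0.246; 0 of 14 segments). The difference between compartments did not differ detectably between PBS and UPEC mice (log2 difference 0.60, UPEC minus PBS, exact permutation p = 0.463). In bulk libraries of this kind, fewer cells carrying the segment and less of its RNA per cell cannot be told apart.

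**Figure D1:**
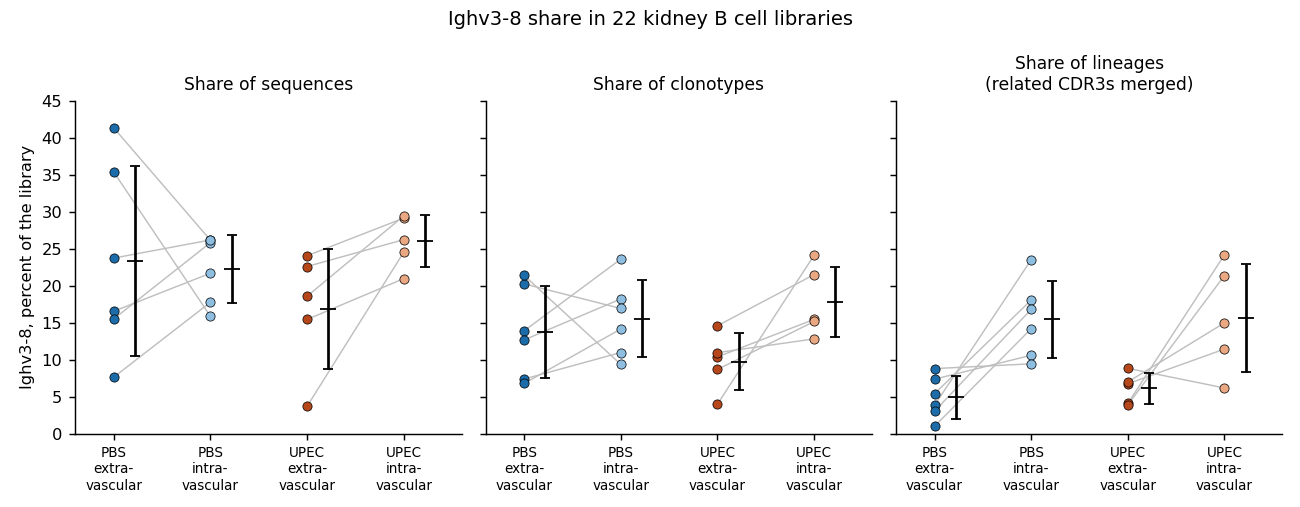
Ighv3-8 as percent of all sequences, clonotypes and lineages of each library (y axis) by treatment and compartment (x axis). Each point is 1 library, grey lines join the fractions of 1 mouse, and bars give mean ± SD (n = 6 PBS, n = 5 UPEC); the shares of sequences overlap between PBS fractions, whereas the PBS extravascular lineage shares (1.00% to 8.80%) all lie below the intravascular ones (9.44% to 23.5%).

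UPEC treatment moved the share in neither fraction beyond the spread between mice. The log2 difference in clonotype share, UPEC minus PBS, was -0.47 (SE 0.56, adjusted p = 0.762; -0.19 without UPEC mouse 1) in the extravascular and 0.22 (SE 0.34, adjusted p = 0.801) in the intravascular libraries by limma. By lineages it was 0.49 (SE 0.56, adjusted p = 0.907) and -0.06 (SE 0.43, adjusted p = 0.945). Single mice moved both values, the first to 0.13 without PBS mouse 4 and the second to 0.23 without UPEC mouse 4, and neither was called. None of the 12 extravascular or 15 intravascular segments was called in either unit.

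The other segments of the Ighv3 family, which resemble Ighv3-8 in sequence, did not all behave alike. Ighv3-1 had a lineage share of 3.57% ± 2.14 in PBS extravascular and 13.7% ± 4.35 in PBS intravascular libraries, and its log2 difference of -1.996 (SE 0.47, limma adjusted p = 0.00345) was called. Ighv3-6 had 11.6% ± 3.37 and 14.3% ± 1.95, with a log2 difference of -0.35 (SE 0.44, adjusted p = 0.566). Ighv3-3, Ighv3-4 and Ighv3-5 each had a mean lineage share under that of Ighv3-8 in every group, with a highest group mean of 2.39% (Ighv3-5, UPEC intravascular). The clonotype shares most like that of Ighv3-8 across the 22 libraries were those of Ighv15-2 (Spearman's rho 0.48), Ighv3-5 (0.45) and Ighv3-1 (0.45) among 15 segments. With lineages the likeness to Ighv3-1 was 0.96 among 13 segments. The libraries share mice and compartments and the shares of 1 library add up to a fixed total, so these values are descriptions only.

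The extravascular Ighv3-8 sequences came from few lineages and the intravascular ones from many. The PBS extravascular libraries held 7, 9, 10, 2, 5 and 19 Ighv3-8 lineages in mice 1 to 6, and the intravascular libraries of the same mice 39, 79, 58, 44, 43 and 22. The largest lineage took 87.7%, 51.8%, 55.5%, 67.4%, 67.1% and 18.7% of the extravascular Ighv3-8 sequences, against 12.6%, 3.81%, 6.48%, 11.02%, 14.4% and 19.6% of the intravascular ones. In 5 of the 6 mice the extravascular value was the higher, and mouse 6, with 7 large lineages, was the exception. In the UPEC mice the extravascular libraries held 8, 5, 12, 28 and 16 lineages, and the intravascular ones 74, 62, 39, 21 and 40. UPEC mouse 4 reversed the order of the others, with 28 lineages outside and 21 inside the vessels.

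**Figure D2:**
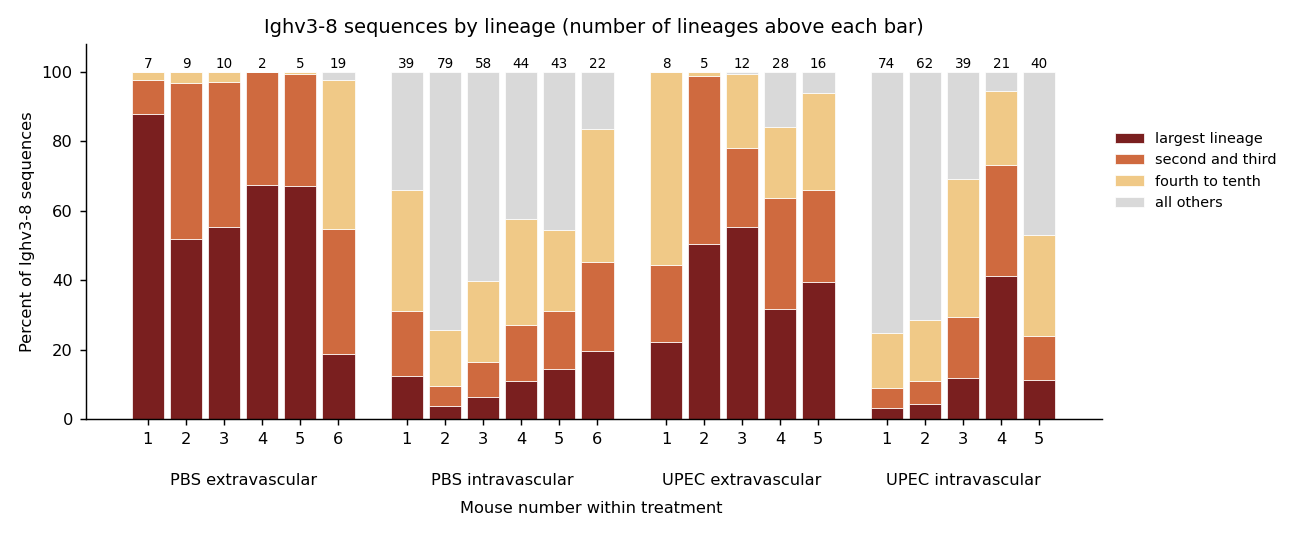
Percent of the Ighv3-8 sequences of each library (y axis) by size rank of the lineage they belong to, from the largest (dark) to the smallest (grey), by mouse (x axis), with the number of lineages above each bar. In the PBS extravascular libraries the 3 largest lineages hold 96.7% to 100% of the sequences in mice 1 to 5 and 54.7% in mouse 6, and in the PBS intravascular libraries 9.52% to 31.1% in mice 1 to 5 and 45.4% in mouse 6.

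To compare libraries with unequal numbers of Ighv3-8 sequences, the number of clonotypes expected in a draw of 10 of them was computed. The draw does not even out reads. The number of sequences of a lineage rose with its reads (Pearson's r 0.99 between log2 values, 30 lineages of at least 20 sequences). The PBS extravascular libraries held 6271 to 18956 reads and the PBS intravascular ones 1881 to 4385. The part of depth in this measure, by clonotypes or by lineages, was not tested. The expected number of clonotypes was 4.04 ± 1.30 in PBS extravascular and 8.66 ± 0.86 in PBS intravascular libraries (SD, n = 6), and lower outside in 6 of 6 mice. The difference of -4.62 had an exact two-sided signed-rank p of 0.03125, the smallest that 6 pairs allow, and 0.0781 after Benjamini-Hochberg adjustment over the 5 measures compared between the PBS fractions. By lineages the values were 2.90 ± 1.46 and 8.57 ± 0.90, again lower in 6 of 6 mice. Between UPEC and PBS extravascular libraries (5.33 ± 1.20, n = 4, against 4.04 ± 1.30, n = 6) the difference of 1.29 did not pass (exact Mann-Whitney p = 0.114, adjusted p = 0.286). UPEC mouse 1 had too few sequences for this measure. In the 4 UPEC mice with a value in both fractions, the mean difference was -2.90, outside minus inside the vessels. The outside was higher in 1 of them. Ighv3-1 had similar values, 3.70 ± 1.72 outside and 8.15 ± 2.47 inside the vessels of PBS mice, while Ighv3-6 had 6.99 ± 1.84 and 9.86 ± 0.12. All other V segments pooled gave 7.63 ± 0.68 in the PBS extravascular and 9.31 ± 1.36 in the PBS intravascular libraries, so their mean was also lower outside the vessels. As Ighv3-8 was chosen for its many sequences, to which large lineages add, no p-value is given for these comparisons with other segments. Their tests still count among the 10 comparisons with other V segments over which the values below are adjusted.

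**Figure D3:**
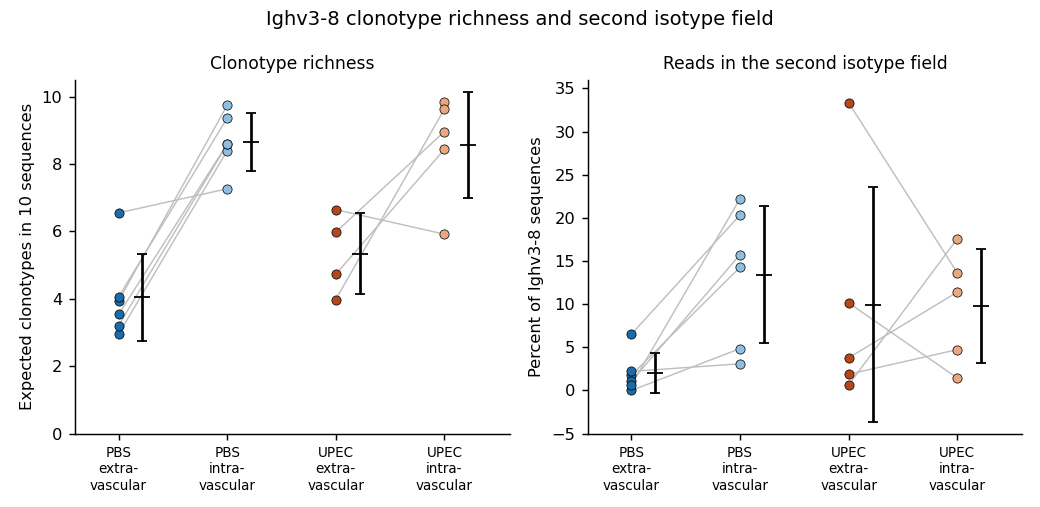
Left, clonotypes expected in 10 Ighv3-8 sequences (y axis); right, percent of Ighv3-8 sequences with reads in the second isotype field (y axis), by treatment and compartment. Points are libraries, grey lines join the fractions of 1 mouse and bars give mean ± SD (n = 6 PBS, n = 5 UPEC, n = 4 for UPEC extravascular richness); richness was lower outside the vessels in 6 of 6 PBS mice.

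Of the 30 Ighv3-8 lineages with at least 20 sequences in a library, 17 were in PBS extravascular, 9 in UPEC extravascular, 4 in UPEC intravascular and 0 in PBS intravascular libraries. The cut of 20 was the same at every depth. The PBS intravascular libraries held 617 to 931 Ighv3-8 reads each, the PBS extravascular ones 1079 to 3240. The part of depth in these counts was not tested. The other V segments together had 89 lineages of that size, in the same order of groups 50, 30, 6 and 3, so 89.9% of theirs and 86.7% of those of Ighv3-8 were extravascular. The 26 extravascular ones were spread over 10 of the 11 mice and held 2045 of the 2337 extravascular Ighv3-8 sequences. No 2 of these lineages shared a CDR3, and they had no common length, D or J segment. Their CDR3s were 8 to 19 amino acids long (without the 2 anchoring residues), 12 carried a D segment of the Ighd2 family and 10 of the Ighd1 family, and they used Ighj1, Ighj2, Ighj3 and Ighj4 in 7, 8, 2 and 9 cases. The junctions of the largest lineage of each extravascular library with a lineage of that size, and of the largest intravascular one, are given to show this variety. They run from the cysteine codon to the tryptophan codon that closes the CDR3, and capitals mark the nucleotides annotated between the V and D and between the D and J segments. The junction of PBS mouse 3 has no annotated D segment, so none of its nucleotides could be marked.
PBS mouse 1: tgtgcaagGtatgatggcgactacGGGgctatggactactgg
PBS mouse 2: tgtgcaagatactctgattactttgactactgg
PBS mouse 3: tgtgcaagaaactggtacttcgatgtctgg
PBS mouse 4: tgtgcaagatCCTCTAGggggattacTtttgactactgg
PBS mouse 5: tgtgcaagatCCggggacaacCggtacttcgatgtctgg
PBS mouse 6: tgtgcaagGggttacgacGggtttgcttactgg
UPEC mouse 2: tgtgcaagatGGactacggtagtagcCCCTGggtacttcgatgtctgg
UPEC mouse 3: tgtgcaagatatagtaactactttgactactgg
UPEC mouse 4: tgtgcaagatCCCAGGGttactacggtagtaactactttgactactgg
UPEC mouse 5: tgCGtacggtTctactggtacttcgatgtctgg
UPEC mouse 4, intravascular: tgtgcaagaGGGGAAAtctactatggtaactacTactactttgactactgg

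The largest of all was the lineage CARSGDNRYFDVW (Ighd2-13, Ighj1) of PBS mouse 5, with 208 sequences and 1578 reads, 27.7% of that library. In PBS mouse 2 the lineages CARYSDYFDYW (Ighd2-3, Ighj2; no inserted nucleotide) and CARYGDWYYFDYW (Ighd2-13, Ighj2) had 175 and 135 sequences and together took 91.7% of the Ighv3-8 sequences. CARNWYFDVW of PBS mouse 3 (157 sequences, Ighj1) had no identifiable D segment. The lineage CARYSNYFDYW of UPEC mouse 3 (147 sequences, Ighd1-1, Ighj2) was likewise annotated with no inserted nucleotide. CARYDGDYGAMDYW of PBS mouse 1 (143 sequences, Ighd2-3, Ighj4) took 87.7% of the Ighv3-8 sequences there, but 6.70% of the library. The largest intravascular lineage, that of UPEC mouse 4 printed last above (Ighd2-1, Ighj2), had 114 sequences and 782 reads. In PBS mice the largest intravascular lineage was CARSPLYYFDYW of mouse 6, with 19 sequences.

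The CDR3s of these 30 lineages were not found in the other fraction of the same mouse with any V segment. A count of 0 in the 26 cases outside the vessels allows shares of up to 0.815% to 1.29% of the lineages of the paired intravascular library (counting error only). Of the 89 large lineages of other V segments, 14 (15.7%) had a CDR3 that was also found in the other fraction. Among all 382 extravascular and 587 intravascular Ighv3-8 clonotypes, 1 was found in both fractions of a mouse, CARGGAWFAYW in UPEC mouse 4. That is 0.262% of the extravascular and 0.17% of the intravascular ones. Over all other V segments 74 clonotypes in 10 mice were found in both fractions, 2.64% of 2805 extravascular and 2.48% of 2980 intravascular ones, a difference that was not tested. Between mice, 1 clonotype was shared, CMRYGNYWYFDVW (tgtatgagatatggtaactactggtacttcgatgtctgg), with 1 sequence of 2 reads in each of PBS mouse 2, PBS mouse 3 and UPEC mouse 4. The same CDR3 occurred 170 times with other V segments in 18 libraries, mostly with Ighv11-2, a segment known for antibodies of B-1 cells to phosphatidylcholine. Matched on amino acids, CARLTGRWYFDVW was also present in 2 mice (PBS 4 and UPEC 1, 2 sequences in all).

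Within each large lineage 1 sequence stood out by its reads. In the 30 lineages it carried 48.9% to 74.0% of them (median 62.4%), and in 30 of 30 it had no mismatch to germline Ighv3-8 over the part of the V region read. The other sequences of a lineage had a median of 2 to 3 reads. Of the sequences of these lineages with a mismatch value, 612 had no mismatch, 1563 had 1 and 41 had 2 or more. The number of sequences of a lineage followed its number of reads (Pearson's r 0.99 between log2 values over the 30 lineages, which come from 12 libraries and share depth; a description only). The count of sequences by which Ighv3-8 was chosen thus moves with reads per lineage; the part of sequencing depth and amplification in it was not tested.

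Of the Ighv3-8 sequences with a mismatch value, a single mismatch was found in 66.9% of the extravascular and 32.7% of the intravascular ones, and none in 30.8% and 66.2%. Sequences without a mismatch nevertheless held 74.9% of the extravascular and 89.8% of the intravascular reads. The 1929 single mismatches fell on 211 positions of the V region, with at most 44 at 1 position. They were of uneven kind: A to C made up 35.6%, and A to C, C to A, G to T and T to G together 79.1%, whereas transitions made up 16.0%. They were also uneven along the segment. In the 1834 such sequences that began at position 20 (counted from 1 at the start of the V region), positions 20 to 100 held under 2 sequences per position and positions 181 to 220 held 15.1. Per sequence, the mean mismatch level was 0.299% ± 0.017 in PBS extravascular and 0.126% ± 0.063 in PBS intravascular libraries. In each of the 6 mice it was higher outside the vessels (unadjusted p = 0.03125 by the exact paired rank test, the smallest possible). In UPEC extravascular libraries it was 0.20% ± 0.11. Each of the 5 values (0% to 0.278%) lay below each PBS extravascular value (0.285% to 0.332%, unadjusted exact Mann-Whitney p = 0.00433, the smallest possible). The value of 0% was that of UPEC mouse 1 with 9 sequences, and without it the difference from PBS went from -0.0989 to -0.0489 percentage points (exact Mann-Whitney p = 0.00952, the smallest that the remaining libraries allow). In UPEC mice 1 to 5 the extravascular values were 0%, 0.278%, 0.264%, 0.233% and 0.225%. The intravascular values were 0.00874%, 0.0854%, 0.182%, 0.281% and 0.065%. Mice 1 and 4 were thus lower outside the vessels, unlike the PBS mice. The PBS extravascular libraries were also the deepest, and the part of depth in these differences was not tested. Counting each sequence was an alternative setting, and its p-values are unadjusted. The planned tests, with each clonotype counted once, are given next and did not pass.

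**Figure D4:**
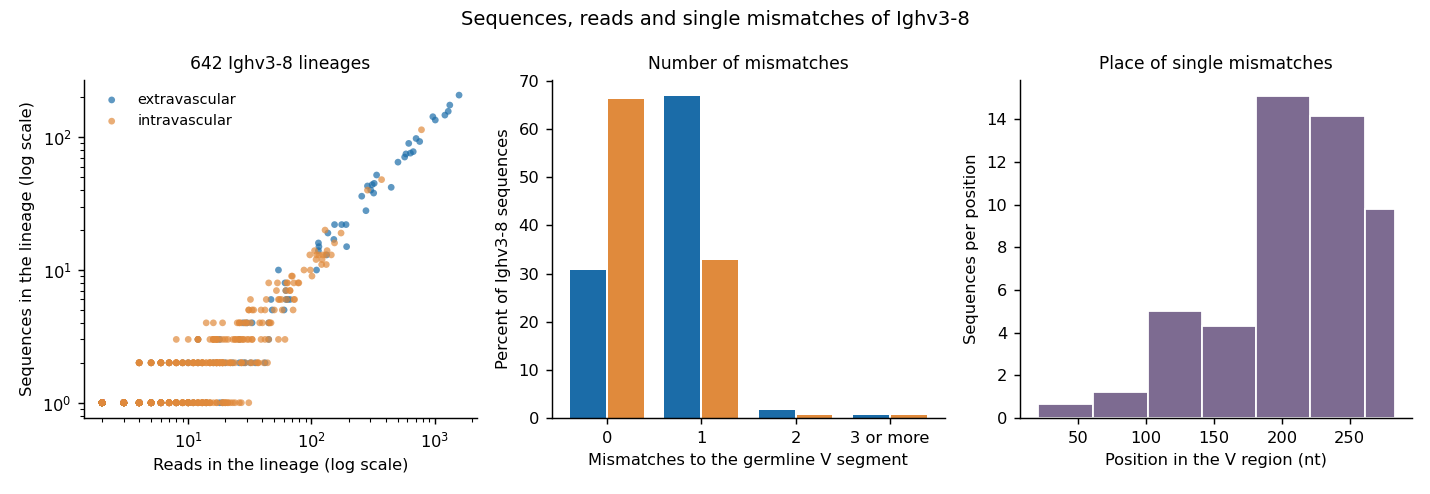
Left, sequences (y axis, log scale) against reads (x axis, log scale) of the 642 Ighv3-8 lineages; middle, percent of the Ighv3-8 sequences with a mismatch value (y axis) that had 0, 1, 2 or at least 3 mismatches, blue for extravascular and orange for intravascular; right, single-mismatch sequences per position (y axis) along the V region (x axis, nucleotides) in the 1834 sequences that began at position 20. Large lineages lie on 1 diagonal in both fractions, and single mismatches make up 66.9% of the extravascular sequences with a mismatch value.

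When each clonotype was counted once through its most abundant sequence, the mismatch level was 0.068% ± 0.073 in PBS extravascular and 0.016% ± 0.027 in PBS intravascular libraries (exact signed-rank p = 0.188, adjusted p = 0.313), and 0.018% ± 0.040 in UPEC extravascular libraries (exact Mann-Whitney p = 0.102 against PBS, adjusted p = 0.286). When CDR3s more frequent with another V segment of the library were left out, the PBS difference went from 0.052 to -0.007 percentage points, and without PBS mouse 1 it was 0.024. By lineages it was 0.298 percentage points (0.318% ± 0.258 against 0.020% ± 0.029, higher outside in 5 of 5 mice, p = 0.0625 by the exact paired rank test, the smallest that 5 pairs allow). The PBS extravascular values ran from 0.076% to 0.652%. Among their lineages were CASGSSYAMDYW of mouse 1, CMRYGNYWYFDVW of mouse 2 and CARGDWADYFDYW of mouse 6. Each was 1 sequence of 2 or 3 reads with 11 or 12 mismatches, and its CDR3 was more frequent with another V segment. The lineage difference without them is not given. The UPEC minus PBS difference by lineages was -0.293 percentage points (0.025% ± 0.057 against 0.318% ± 0.258, n = 5 each, unadjusted exact Mann-Whitney p = 0.0238), so the size and the call depend on the unit. The UPEC mean came from mouse 4 alone and was 0% without it. That library held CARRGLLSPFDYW, 1 sequence of 2 reads with 9 mismatches, all of them Ighv3-1 bases. The difference therefore rests on a few sequences of few reads. There were 48 Ighv3-8 clonotypes (4.95% of 969) whose exact CDR3 also occurred with another V segment in the same library, 39 of them mainly with Ighv3-1, and in 45 of the 48 one of the 2 partners had a single sequence. In 17 Ighv3-8 sequences with 5 or more mismatches, 122 of 154 mismatched bases were those of another Ighv3 germline segment at the same place. In 13 of these sequences every mismatch was of this kind, 11 of them with Ighv3-1. Where these sequences arose was not tested.

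The isotype fields give the reads of each sequence by constant region. Their names are cut off after Igha, so the order of the other fields was inferred as alphabetical and could not be checked. The ninth field, Ighm by this inferred order, had reads in 3453 of 3661 Ighv3-8 sequences (94.3%). The second field, Ighd by the same order, had reads in 190 (5.19%). The first field, Igha, the constant region of the IgA antibodies of mucosal surfaces, had reads in 2 Ighv3-8 sequences, both from 1 intravascular library, against 302 of 13517 sequences of other V segments (2.23%) in 20 libraries. In the extravascular libraries it was 0 of 2337 against 277 of 9349 (2.96%). As the sequences of a lineage are not independent, the lineages give the wider limit, 0 of 121 for Ighv3-8, which allows a share of up to 2.48% (counting error only), against 30 of 2021 (1.48%). Of the remaining fields, 3 were empty for Ighv3-8 (fields 4, 5 and 7), and fields 6, 3 and 8 held 11, 4 and 1 sequences. In the empty fields, 0 of 642 lineages allows a share of up to 0.467% (counting error only). Fields 4, 5 and 7 were also rare in other V segments, with 12, 48 and 3 of 13517 sequences (0.0888%, 0.355% and 0.0222%).

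The share of sequences in the second field was lower outside the vessels in each PBS mouse, although the difference did not pass after adjustment. They made up 0%, 1.78%, 1.06%, 6.52%, 0.645% and 2.22% of the extravascular and 4.85%, 14.3%, 15.7%, 20.3%, 22.2% and 3.09% of the intravascular Ighv3-8 sequences of mice 1 to 6, lower outside in 6 of 6. The means were 2.04% ± 2.33 and 13.4% ± 7.89 (exact signed-rank p = 0.03125, the smallest possible; adjusted p = 0.0781). In mouse 4 all 9 extravascular sequences of this field belonged to 1 lineage, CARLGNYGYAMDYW. The sequences of a lineage are not independent. In the PBS extravascular libraries 87.7% to 100% of the Ighv3-8 sequences were in lineages of at least 20 sequences. These shares therefore rest on few lineages, and no value by lineage is given for this field. In the other V segments of the same libraries the share was also lower outside (5.49% ± 3.92 against 17.8% ± 5.67), so the direction was shared. In UPEC mice the values were 9.96% ± 13.6 outside and 9.76% ± 6.58 inside the vessels, a mean difference of 0.201 percentage points, with the outside higher in 2 of 5 mice. Without UPEC mouse 1, whose extravascular value of 33.3% came from 3 of 9 sequences, they were 4.12% ± 4.22 and 8.79% ± 7.17 (n = 4), a difference of -4.67 and lower outside in 3 of 4. The difference between compartments did not differ detectably between the treatments (exact permutation p = 0.121). UPEC extravascular libraries did not differ detectably from PBS extravascular ones (difference 7.92 percentage points, exact Mann-Whitney p = 0.193, adjusted p = 0.321), and without UPEC mouse 1 the difference was 2.08.

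The CDR3s of Ighv3-8 had the same median length as those of other V segments. Extravascular lineages had CDR3s of 7 to 19 amino acids (median 12, 121 lineages) and intravascular ones of 6 to 20 (median 12, 521 lineages), with the same median of 12 for other V segments. Over clonotypes the mean was 11.7 ± 0.94 amino acids in PBS extravascular and 12.2 ± 0.50 in PBS intravascular libraries (exact signed-rank p = 0.438), and 12.1 ± 1.42 in UPEC extravascular libraries (exact Mann-Whitney p = 0.829). Within the intravascular libraries Ighv3-8 CDR3s were longer than those of other segments by 0.34 amino acids (9 of 11 libraries, exact signed-rank p = 0.042), which did not hold after adjustment over 10 comparisons (adjusted p = 0.105). Inserted nucleotides (the bases at the V to D and D to J joins that no segment accounts for) numbered 6.91 ± 1.35 per clonotype in PBS extravascular and 6.39 ± 0.81 in PBS intravascular libraries (exact signed-rank p = 0.562). By lineages the order turned, to 4.82 ± 1.52 and 6.27 ± 0.87 (n = 5, p = 0.3125 by the exact test), so no direction can be given. Of 632 lineages with a D segment, 25 had no inserted nucleotide (3.96%, against 5.35% for other V segments). By fraction, these were 8 of 116 extravascular lineages (6.90%, against 6.54%) and 17 of 516 intravascular ones (3.29%, against 4.50%). The lower share was thus seen only inside the vessels and was not tested.

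Most Ighv3-8 CDR3s kept the germline start. The motif CAR, which the last 9 germline bases encode, opened 594 of 642 lineages (92.5%), and 71.8% of the lineages of other V segments. Averaged over libraries, it opened 80.9% ± 6.44 of PBS extravascular (n = 5) and 92.6% ± 3.94 of PBS intravascular Ighv3-8 lineages (n = 6). In the UPEC libraries it opened 93.9% ± 4.73 outside and 95.3% ± 2.92 inside the vessels (n = 5 each). These differences were not tested. CAS opened 20 lineages, CAK 5 and CAG 4. YGSS, a stretch that Ighd1-1 can encode, was in 59 lineages (9.19%, against 13.1% for other V segments), YSNY in 22, YGNY in 19, YDYD in 16, YDGY in 15, NWD in 10 and LTG in 9. The ends followed the J segments: YFDVW in 179 lineages (27.9%), AMDYW in 171, YFDYW in 121 and FAYW in 59 (9.19%, against 18.2% for other V segments).

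The D partners of Ighv3-8 lineages were led by Ighd1-1 (200 of 642, 31.2%), followed by Ighd4-1 (12.3%), Ighd2-4 (8.72%), Ighd2-3 (8.41%), Ighd2-1 (6.54%) and Ighd2-5 (6.54%). In other V segments Ighd1-1 made up 35.0% and Ighd4-1 8.73%. Averaged over the 11 intravascular libraries, the Ighd1 family gave 37.0% ± 10.0 of Ighv3-8 and 37.3% ± 2.39 of other lineages, and the Ighd2 family 40.3% ± 6.40 and 39.5% ± 2.08, differences within the spread between libraries. In the 10 extravascular libraries with enough lineages the Ighd1 family gave 32.7% ± 17.9 of Ighv3-8 and 39.3% ± 2.29 of other lineages, and the Ighd2 family 46.3% ± 14.0 and 38.1% ± 2.85, higher for Ighv3-8 in 7 of 10. For the Ighd2 family the PBS extravascular means were 54.1% ± 15.5 (n = 5) and 39.0% ± 3.21 (n = 6). The UPEC extravascular means were close, 38.6% ± 7.12 and 37.6% ± 2.58 (n = 5 each). No test was made of these shares.

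Among the J segments, the extravascular clonotypes of Ighv3-8 used Ighj3 less often than those of other V segments, a call that was lost by lineages. In the extravascular libraries Ighj3 took 4.85% ± 6.27 of Ighv3-8 clonotypes and 18.4% ± 7.36 of the others, lower in 11 of 11 libraries (difference -13.5 percentage points, exact signed-rank p = 0.000977, adjusted p = 0.00977 over 10 comparisons). Counted by lineages, which number 2 to 28 per extravascular library, the values were 11.96% ± 13.3 and 20.6% ± 2.47 over 10 libraries, lower in 8 (p = 0.105 by the same exact test), so the extravascular call rests on the clonotype count. In the PBS extravascular libraries alone the lineage values were close, 16.7% ± 17.0 (n = 5) and 18.7% ± 2.51 (n = 6), and in the UPEC ones 7.26% ± 7.44 and 22.1% ± 1.17 (n = 5). In the intravascular libraries, with 21 to 79 Ighv3-8 lineages each, Ighj3 took 10.2% ± 4.74 of Ighv3-8 lineages against 23.0% ± 3.61 of other lineages, and was lower in 11 of 11 libraries. This comparison was added after seeing the data and carries no test. Ighv3-1 and Ighv3-6 had 33.9% ± 3.72 and 24.5% ± 10.1 Ighj3 in the PBS intravascular libraries, where Ighv3-8 had 9.27% ± 2.66. Ighj1 took 30.2% ± 4.57 of intravascular Ighv3-8 lineages against 20.8% ± 3.02 of others, higher in 10 of 11 libraries. The differences for Ighj1, Ighj2 and Ighj4 in the extravascular libraries (2.01, -0.63 and 12.2 percentage points by clonotypes) did not pass (adjusted p 0.85, 0.85 and 0.557 by the exact signed-rank test). By lineages they were 3.65, -8.50 and 13.5, and without PBS mouse 1 the Ighj4 difference by clonotypes was 5.81.

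**Figure D5:**
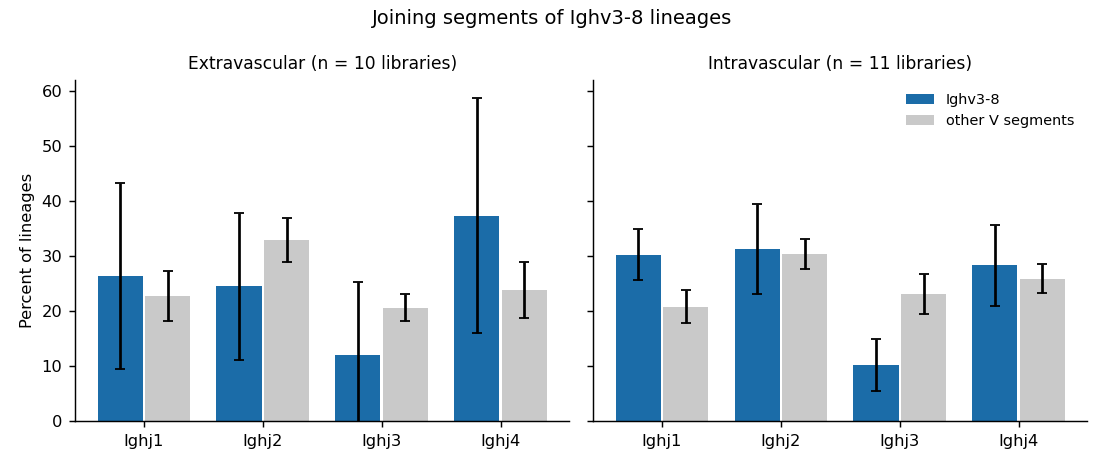
Percent of lineages (y axis) using each joining segment (x axis) for Ighv3-8 (blue) and all other V segments (grey); bars give the mean over libraries and error bars the SD, cut at 0 where they would pass it (10 extravascular and 11 intravascular libraries). Intravascular Ighv3-8 lineages used Ighj3 in 10.2% ± 4.74 against 23.0% ± 3.61 for other segments.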

How the data were processed

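Heavy chain repertoires were measured in 22 libraries, 1 extravascular and 1 intravascular from each mouse (6 PBS, 5 UPEC). The authors filtered and merged paired MiSeq reads, formed consensus sequences by molecular barcode, removed sequences read once and used IMGT/V-QUEST to assign segments. The deposited tables hold 1 sequence per row with its segments and junction, and 9 read counts per sequence in its name, other than a gene count; the isotype names are cut off after Igha, so the order of the other fields was inferred as alphabetical. V-segment primers and PCR can shift shares.

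Here names and CDR3s were read from these tables, and mismatches were counted against the germline segment (at least 100 aligned nucleotides, at most 15% different). Log2 clonotype shares of segments with at least 5 clonotypes in at least 50% of the libraries compared (prior 0.5) were tested with limma 3.58.1 in R 4.3.3; other measures, in libraries with at least 3 clonotypes, with exact two-sided signed-rank tests within mice and Mann-Whitney tests between treatments, adjusted by Benjamini-Hochberg per family. Mouse numbers pair fractions of 1 animal; between treatments they pair nothing. Alternatives are described in the closing section. Named were the Ighv3 segments, the 3 segments with the most similar clonotype shares, D segments with at least 5% of Ighv3-8 clonotypes, and Ighv3-8 clonotypes with at least 20 sequences or found in at least 2 mice; Ighv12-3, Ighv11-2, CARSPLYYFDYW and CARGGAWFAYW were added after their values were seen. The segment, lists and motifs were chosen with earlier results of these data known. The limma step was tested on simulated counts.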

Additional observations from a re-analysis of the deposited data

Results flagged for a closer look

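In 28 checks of a measure within a group for 1 library standing apart, 4 libraries did, where chance gives about 1 in 20 (1.4). PBS extravascular mouse 6 had 6.551 expected Ighv3-8 clonotypes in 10 sequences, against 4.056 in the nearest library of its group. PBS extravascular mouse 4 had 6.522% of its Ighv3-8 sequences in the second isotype field, against 2.217% in the nearest. PBS intravascular mouse 5 had a V mismatch level per clonotype of 0.06913%, against 0.01521%. UPEC extravascular mouse 4 had 0.09005%, against 0% in the nearest. It held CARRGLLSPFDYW, 1 sequence of 2 reads with 9 mismatches, all of them Ighv3-1 bases. None of 6 tests of whether the difference between compartments changed with UPEC had an unadjusted exact permutation p under 0.05.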

How the results depend on the processing

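Over all settings other than those that leave out a mouse, 190 of 213 values kept their direction and their side of the threshold, 15 reversed, 4 became significant and 4 lost significance. Merging related CDR3s was an alternative added after seeing the data. It moved the log2 difference in Ighv3-8 share between PBS fractions to -1.80 (called). The extravascular UPEC minus PBS difference moved to 0.49 and the intravascular one to -0.064. With only clonotypes of at least 3 reads in all, the intravascular one was -0.0086. The PBS difference in inserted nucleotides became -0.61 with at least 3 reads, -1.30 with each sequence counted and -1.45 after merging, and the extravascular UPEC minus PBS difference 0.035, 0.73 and 1.14. The PBS difference in V mismatches (percentage points) was 0.173 with each sequence counted (unadjusted p = 0.03125, exact test). It was -0.0074 without CDR3s more frequent with another V segment. The UPEC minus PBS difference was -0.0989 with each sequence counted and -0.293 after merging, both past the unadjusted threshold. Against other V segments, the extravascular CDR3 length difference was -0.0077 with at least 10 clonotypes, and the intravascular one lost significance unpaired (0.338), by a sign-flip test (0.338) and after merging (0.256). After merging, inserted nucleotides differed by -0.619 outside and -0.045 inside the vessels, and Ighj3 by -8.65 (no longer past the threshold). Ighj2 differed by 0.523 with at least 3 reads, 2.10 with at least 10 clonotypes and -8.50 after merging. The causes of these changes were not tested, beyond the smaller numbers of clonotypes that merging and filters leave.

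Leaving out 1 mouse at a time gave log2 differences in clonotype share of -0.52 to -0.08 between PBS and -1.11 to -0.53 between UPEC fractions, and of -0.65 to -0.19 outside and 0.092 to 0.36 inside the vessels between treatments, none of them called; by lineages it gave -1.68 to -0.93 between UPEC fractions, 0.13 to 0.70 outside and -0.26 to 0.23 inside the vessels between treatments. It gave -5.40 to -4.38 for expected clonotypes and -13.5 to -9.35 for the second isotype field between PBS fractions, where 5 pairs cannot go below p = 0.0625 by the exact test, and -0.97 to -0.35 for CDR3 length, 0.020 to 0.874 for inserted nucleotides and 0.0243 to 0.0746 for V mismatches. Between UPEC and PBS extravascular libraries it gave 0.857 to 1.80 for expected clonotypes (past the threshold without PBS mouse 6), 2.08 (without UPEC mouse 1) to 10.3 for the second isotype field, -0.0704 to 0.831 for CDR3 length, -1.46 to -0.223 for inserted nucleotides and -0.0684 to -0.0260 for V mismatches (past the threshold without PBS mouse 4 and without UPEC mouse 4); the mismatch difference was -0.119 to -0.0489 per sequence and -0.353 to -0.209 per lineage. Against other V segments it gave -0.227 to 0.212 and 0.257 to 0.446 for CDR3 length outside and inside the vessels (the latter past the unadjusted threshold only without PBS mouse 2, 3 or 6), 0.135 to 0.675 and 0.119 to 0.485 for inserted nucleotides, -2.54 to 6.76 for Ighj1, -5.75 to 2.16 for Ighj2, -14.5 to -11.5 for Ighj3 and 5.81 to 15.1 for Ighj4.

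Mice pair the fractions, since each gave both. Without the replicate block the log2 difference in clonotype share had an adjusted limma p of 0.760 in PBS and 0.252 in UPEC mice, and the expected clonotypes an exact p of 0.00216 (adjusted p = 0.0108 over 5 measures, against 0.0781 with the block); for the second isotype field the adjusted p was 0.0216, against 0.0781. With mouse numbers as a replicate block, although they name different mice, UPEC minus PBS was -0.32 outside and 0.092 inside the vessels. The number of V segments called between PBS fractions was 4 of 17 without the block and 5 with it. Beyond these calls and the unadjusted one on intravascular CDR3 length, the block changed no call among the 17 values also computed without it. The 2 to 28 lineages per extravascular library limit every extravascular comparison by lineage.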
